A study of Homo sapiens with 18 samples.

Results

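The regions described here are m6A peaks in first exons, that is, stretches of RNA enriched by an antibody to N6-methyladenosine (m6A) whose midpoint lies in the first exon of a gene with at least 2 exons. They were taken from the peaks called in METTL3 WT cells together with the peaks called in METTL3 K513R cells that overlap no WT peak on the same strand. Each peak was given to the gene whose exons, merged over transcripts, cover most of its bases, and peaks longer than 5000 bases were set aside. Of 27801 peaks, including those longer than 5000 bases (39708 with both lists in full), 2495 lay in a first exon (8.97%), in 2134 genes. The WT list held 1852 of them and 643 came from the K513R list only. By the same rule 7332 peaks lay in internal exons and 10859 in last exons.

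The study compared LoVo cells, an established human colorectal cancer line, that carry METTL3 WT or METTL3 K513R, a form of this m6A methyltransferase with an arginine in place of a lysine. There were 18 libraries, 3 of each kind (input, IP, RNA-seq) per genotype, and the labels name no drug treatment or time course. For MeRIP-seq, poly(A) RNA from 50 µg of total RNA was broken into fragments of mainly 100 to 200 nt, 10% was set aside as input and the remainder went into immunoprecipitation (IP). RNA-seq used 2 µg of total RNA depleted of rRNA. How the K513R cells were made, and whether they are 1 clone, is not stated in the labels. The labels number the libraries without tying them to separate cultures, so the p-values below measure only the spread between these libraries, which may be technical.

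Counts in the 27801 peaks ranged from 6229799 to 7073961 per WT IP library and from 3267034 to 5080385 per K513R IP library, and from 2904563 to 3596567 and from 1548541 to 2821405 per input library. Of 12 colorectal epithelial markers, 9 passed the count filter in RNA-seq (CDX1, CEACAM5 and TFF3 did not). Their sum, in CPM (library-scaled counts), was 10660 to 15410 across WT libraries and 2486 to 2679 across K513R libraries. Of 8 blood cell markers 7 passed, with sums of 8.53 to 10.3 CPM and 18.3 to 19.5 CPM. The part of this difference in the results below was not tested.

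In most mRNAs m6A is written by METTL3 with METTL14 in a short sequence word centred on A followed by C, and it is densest in last exons and around stop codons. The 5′ end of an mRNA differs from the rest of the transcript because the first transcribed base, when it is A, can carry m6Am, a methylated adenosine next to the cap that is written by PCIF1. Antibodies to m6A also bind m6Am, and MeRIP fragments do not separate the cap-adjacent base from m6A a short way downstream. First exons also hold most 5′ untranslated sequence, through which ribosomes scan to the start codon.

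Because many of these peaks reach the transcription start, the first 30 transcribed bases are shown for members that the results below turn on, from RefSeq (GRCh38.p14, the build of the peaks being GRCh38). The capital at the start marks the first transcribed base of the RefSeq transcript, which can lie inside the merged first exon. For DIPK2A that base lies in the next merged exon. The DIPK2A peak has its midpoint 12 bases before the end of the first merged exon and runs on across a gap of 91 bases. Other capitals mark any word of the m6A consensus known as DRACH, which covers 18 words of 5 letters, each with AC at its centre and GGACT the best known, searched on the transcribed strand only. In these words the first letter is any but C, the second is a purine, and the last is any but G. The first 4 sequences belong to peaks with large increases in K513R, the next 6 to increased peaks of the gene groups described below, RPS14 to a ribosomal protein gene whose change did not pass the test, and DIPK2A to a decreased peak.
TXNDC5, chr6:7910759-7910788, minus strand: Agccccgccgcgatgcccgcgcgcccagga
ARFGEF3, chr6:138161939-138161968, plus strand: Gtgattcatcagcatccgcgccggggcggc
COLGALT1, chr19:17555649-17555678, plus strand: Gacccctttaaggcgcggccagagtcctcc
FDX2, chr19:10315986-10316015, minus strand: Gagtcacgtgatgcatgtcatggccgcctc
IGF2BP2, chr3:185825013-185825042, minus strand: Gaggagagacgagggcagcggaggaggcga
MYBL2, chr20:43667114-43667143, plus strand: Gactgcagttcctgcgagcgaggagcgcgg
NOP56, chr20:2652632-2652661, plus strand: AttgcgagccGAACCcgggagctggcgcca
HSPE1, chr2:197500379-197500408, plus strand: Gcgagtctctttgcggcgctacactagagc
DVL1, chr1:1349389-1349418, minus strand: GcggccacgctcaGGACCccgggccgggcg
BST2, chr19:17405601-17405630, minus strand: GaagattccagcaccctccccTAACTccag
RPS14, chr5:150449710-150449739, minus strand: Ctctctttccggtgtggagtctggagacga
DIPK2A, chr3:143973081-143973110, plus strand: AgttcGGACTcggccgggctgggccaggct
The sequences shown are examples and give no share of first bases, which follows over all members that cover a start. The RPS14 start is the C followed by a pyrimidine run that is typical of ribosomal protein mRNAs.

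Of the 2134 member genes 1702 matched a RefSeq start, and 948 member peaks in 938 genes covered the first 50 transcribed bases. The first base was A in 54.1% of these 948 and G in 37.5%. It was A in 45.3% of 12781 RefSeq starts of other genes that reach 5 CPM on average in RNA-seq and in 44.4% of all 35116 RefSeq starts. Each covering peak was given a single start, whereas a gene in these other sets can have several. One of the 18 words lay in the first 50 bases of 38.7% of the covering peaks, of 40.9% of the other expressed starts and of 49.6% of all starts. GGACT alone, which is among the 18, lay in 4.43%, 4.66% and 4.90%. The median GC content of these windows was 68% in the covering peaks, 66% in the other expressed starts and 60% in all starts. A match is a description of the letters and does not mark a methylated base, and no match says nothing of sites further downstream in the peak.

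First-exon peaks were short and close to the 5′ end. Their median length was 151 bases (quartiles 119 and 240), and the median distance from the 5′ end of the gene to the midpoint was 146 bases (quartiles 75 and 419). The nearest peaks lay 29 bases from the end and the farthest 8256 bases. Of the 2495 peaks, 1489 (59.7%) had their midpoint within 200 bases of the 5′ end, and 1063 (42.6%) began exactly at the annotated end. The exon itself had a median of 546 bases, so a typical midpoint lay 310 bases upstream of the first splice site, and 255 peaks lay within 100 bases of it. The peaks were weaker than others by the authors' fold enrichment of IP over input, with a median of 4.29 against 5.05 in all other peaks. In 796 of the 2495 cases the first exon shared bases with an exon of another gene on either strand. Here and below, shared bases include those of genes on the strand opposite to the peak.

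Most member genes had 1 such peak (1886 of 2134), 185 had 2 and 63 had at least 3. The genes with the most were ZBED6, a zinc finger gene derived from a DNA transposon (12 peaks over 7394 bases of first exon), TSPYL1 (8) and GVQW3 (7). In ZBED6 and TSPYL1 several of these peaks are near copies of each other in the deposited list, offset by a few bases, and all ZBED6 peaks lie on exon bases shared with another gene. In all, 137 members overlapped another member, so they are not independent regions. GVQW3, CCDC82 and MAP3K11 had the longest first exons, of 11603, 9418 and 7742 bases. Log2 IP over input of the GVQW3 peak with the most input counts, 659 bases from the 5′ end, was 1.36, 1.31 and 1.33 in WT libraries 1 to 3 and 0.97, 1.72 and 2.79 in K513R libraries 1 to 3. The genotypes overlapped there, and the change missed the threshold of 0.05 (adjusted p = 0.412 from edgeR).

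The main comparison asked whether IP over input in these peaks differed between METTL3 WT and K513R cells. It was the term for genotype by IP in an edgeR quasi-likelihood model of the counts of all 12 MeRIP libraries, fitted to all 27801 peaks, and peaks were called at 0.05 after Benjamini-Hochberg adjustment of p. Of 1498 members that passed the filter on low counts, 446 were higher and 33 lower in K513R (479 in all), and 997 were not tested. Among all 17746 peaks tested, 23.9% passed, 14.7% higher and 9.17% lower. Fitted without the filter, so that all 2495 members were tested, 453 were higher and 34 lower, with a median log2 change of 0.66. The median was 0.72 for the 1498 members, -0.14 for 4432 internal-exon peaks (485 higher, 382 lower) and -0.36 for 6033 last-exon peaks (231 higher, 707 lower). It was -0.28 for 415 peaks of single-exon genes (39 higher, 52 lower). Peaks with the midpoint in an intron also rose, with a median of 0.36 over 3238 (873 higher, 265 lower). So did those longer than 5000 bases, which were part of the fit, with 0.25 over 2130 (543 higher, 188 lower).

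The size of these changes depends on how the libraries are scaled, since scaling on these peaks cannot show a change shared by all of them. With library size in place of TMM factors the median of all peaks moved from -0.08 to -0.35, and 240 members were higher and 72 lower. The members stood above the median of all peaks by 0.80 with TMM factors and by 0.81 with library size. The count of 479 fell to 213, 246 and 225 without WT library pair 1, 2 and 3. It was 559, 328 and 424 without K513R pair 1, 2 and 3. Higher members outnumbered lower ones in each of these 6 fits, with 377 and 47 in the least uneven.

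The K513R-only members were included because no peak was called there in WT, which by itself favours a positive difference. Of 335 tested, 203 were higher and 0 lower (60.6%), with a median of 1.32. Of the 1312 tested K513R-only peaks elsewhere, 868 were higher and 0 lower (66.2%), with a median of 1.14. Members of the WT list were chosen the other way round, by a call in WT. Of 1163 tested, 243 were higher and 33 lower, with a median of 0.44, against 1303 higher and 1594 lower of 14936 other WT-list peaks and a median of -0.22. Building the set from the K513R list first, with WT peaks added where no K513R peak overlaps, gave 389 members higher and 37 lower of 1543. Among all 17980 peaks tested in that set, 2462 were higher and 1602 lower. K513R-only peaks made up 25.8% of the members, 11.2% of internal-exon peaks and 9.0% of last-exon peaks. The authors' deposited table holds 471 members with a false discovery rate under 0.05 for its own comparison of the genotypes, 356 higher and 115 lower in K513R. The same counts over all peaks of that table were not made here, so these 471 have no background to be read against.

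Library by library, the median log2 IP over input of the members was -0.12, -0.08 and -0.10 in WT libraries 1 to 3 and 0.35, 0.45 and 0.64 in K513R libraries 1 to 3. These values use CPM with 0.5 added, scaled to the tested peaks, so a negative value means enrichment below that typical of the peaks and need not mean IP below input. All 3 K513R medians lay above all 3 WT medians, by 0.58 between the means. In last-exon peaks the order was the opposite, with WT medians of 0.38 to 0.40 and K513R medians of 0.04 to 0.09. First-exon peaks held 4.29 to 4.35% of the counts in WT IP libraries and 4.59 to 5.59% in K513R IP libraries, and 4.76 to 4.85% and 4.63 to 4.76% of the input counts. By single peaks, 655 of the 1498 members had all 3 K513R values above all 3 WT values and 127 had all below. Among all tested peaks 22.8% lay above and 21.1% below in this way.

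Over both lists together the increase was largest next to the 5′ end, and beyond 500 bases the median change was near or below 0. Of 536 tested members with a midpoint up to 100 bases from the end, 211 were higher and 1 was lower, with a median log2 change of 1.04. In the next bin, up to 200 bases, 124 of 360 were higher and 0 lower (median 0.80; 14 of the 360 had all K513R values below WT without passing the test). From there to 500 bases, 73 of 285 were higher and 9 lower (median 0.37). From there to 1000 bases the counts were 32 and 14 of 178 (median 0.01), and beyond 1000 bases they were 6 and 9 of 139 (median -0.29). Within the WT list alone the medians in the same order were 0.85, 0.58, 0.13, -0.19 and -0.30. In the K513R-only peaks, chosen in a way that favours a rise, they were 1.35, 1.37, 1.21 and 1.12 in the first 4 bins, with 25 of 25 positive between 500 and 1000 bases, and 1 peak was tested beyond.

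The libraries differed by distance as well as by genotype. Within 100 bases of the end the median IP over input was -0.22, -0.18 and -0.21 in WT and 0.56, 0.71 and 1.05 in K513R. Beyond 1000 bases it was 0.32, 0.51 and 0.39 in WT and 0.08, 0.05 and 0.28 in K513R. Of the 5 distance bins, that nearest the end thus had the lowest medians in all WT libraries and the highest in all K513R libraries. K513R-only peaks make up 37.7% of that bin, and in the WT list alone its WT medians were -0.06, -0.02 and -0.10 and those of the next bin -0.10, -0.01 and -0.08. A total of 26 genes had tested peaks both within 200 bases and beyond 500 bases in the same first exon. In 19 of them the signed log2 change was higher near the end, with medians over the 26 of 0.61 near and -0.07 far. This counts a smaller fall near the end as well, as in NKX6-1 (-0.37 near, -1.21 far). MCL1, an apoptosis inhibitor of the BCL2 family, had 0.75 near and -0.30 far, and CCDC82 had 0.87 and -0.21. Neither gene's peaks passed the test by themselves. Going the other way, VCPIP1, a deubiquitinase of the Golgi, had -0.25 and -0.08.

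Peaks near the end were also weaker by the authors' enrichment (median 3.64 within 100 bases, 5.91 beyond 1000), so the change was compared within strata of enrichment and of depth. Among WT-list peaks with an authors' fold enrichment of at most 2, both kinds of peak rose in the median. Of 235 first-exon peaks 90 were higher and 1 lower (median 0.80), and of 2497 other peaks 609 were higher and 99 lower (median 0.43). At an enrichment of 2 to 4, 116 of 503 first-exon peaks were higher and 11 lower (median 0.56), and 500 of 4542 other peaks were higher and 396 lower (median -0.12). At an enrichment of 4 to 8 the first-exon counts were 25 and 14 of 251 (median 0.16) and the others 123 and 615 of 3895 (median -0.42). At 8 to 16 the first-exon median was -0.19 over 134 peaks and that of the others -0.37 over 2748. The 37 of these within 200 bases of the 5′ end had 8 higher, 0 lower and a median of 0.72. By depth, first-exon peaks with a mean of 50 to 200 input counts had a median of 0.84 over 302 peaks against -0.07 over 3965 other peaks, and those with up to 10 counts 0.75 over 407 against -0.23 over 3684. Above 200 counts the other peaks were also higher in the median, at 0.31 over 2141 (716 higher, 295 lower), against 0.67 over 113 first-exon peaks.

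Among the covering peaks, those that begin at an A had a median log2 change of 0.96 (134 of 340 tested higher, 2 lower), and those that begin at another base 0.93 (123 of 333 higher, 3 lower). Peaks with one of the 18 words in the first 50 bases had a median of 0.89 (97 of 264 higher) and those without 0.97 (160 of 409 higher). Of the 257 covering peaks that were higher in K513R, 52.1% began at an A, as did 49.6% of the 411 that were tested and not called. The difference between these shares was not tested.

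The within-gene comparison asked whether first-exon peaks changed differently from the other peaks of the same gene, where gene and library are shared. Exons were merged over transcripts, so both kinds of peak need not lie on the same transcripts. Of 1618 genes with both kinds of peak, 893 passed the filter in a model with each library as a block. The first-exon peaks gained relative to the others in 243 genes and lost in 20, which is 29.5% of the 893 (27.2% and 2.24%). The median log2 difference was 0.81, and it was positive in 699 genes. K513R-only peaks, whose choice favours a gain where they lie in the first exon, are part of these sums. With peaks of the WT list only, 117 genes gained and 12 lost of 640 (129 in all), with a median of 0.64. Per library, the difference between first-exon and other IP over input was above all WT values in all K513R libraries in 366 genes (41%) and below in 49 (5.49%). Without WT library pair 1 or 3 the count of 263 genes fell to 162 and 124, and with a mean of at least 20 input counts in both places it was 155 higher and 14 lower of 397.

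Large within-gene gains were in COLGALT1, NXPH4 and NUS1, with means of 12.7, 5.33 and 1.83 input counts in the first exon in that order. The first-exon peaks of COLGALT1 and NXPH4 were on the K513R list only. COLGALT1, which adds galactose to collagen, had log2 IP over input of -1.25, -1.87 and -1.68 in its first-exon peak (chr19:17555649-17555858, 104 bases from the 5′ end) in WT and 0.75, 1.92 and 1.07 in K513R. Its other peaks had 0.80, 1.10 and 0.92 in WT and 0.09, -0.45 and -0.54 in K513R. The 2 places thus moved in opposite directions with no overlap of the genotypes, a log2 difference of 4.48 ± 0.72 (SE; edgeR adjusted p = 0.000384).

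NXPH4, a secreted neurexin ligand, had a difference of 4.74 ± 0.86 (adjusted p = 0.000826). NUS1, a subunit of the enzyme that makes dolichol, had first-exon input counts of 4, 3 and 4 in WT and of 0 in all 3 K513R libraries, with IP counts of 22, 14 and 18 and of 13, 14 and 16. With inputs at 0 its fitted difference depends on the count added and is not given.

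Among genes past the threshold, the largest within-gene losses were in RASA1, TSC22D2, BCL7A and RABL3. RASA1, a GTPase-activating protein that turns off RAS, had first-exon values of -0.35, 0.16 and 0.15 in WT and -1.84, -2.01 and -1.69 in K513R, while its other peaks went from -0.22, -0.20 and 0.07 to 1.38, 1.58 and 2.25. The genotypes did not overlap at either place, and the difference was -3.92 ± 0.58 (edgeR adjusted p = 0.000379). BCL7A, a SWI/SNF complex subunit, had a difference of -2.90 ± 0.56 (adjusted p = 0.00121) on a mean of 7.33 first-exon input counts. Its first-exon peak with the highest IP level, 85.8% shared with another gene, did not pass by itself (edgeR adjusted p = 0.0699). In TSC22D2 (-3.46 ± 0.78, adjusted p = 0.00328) the first-exon peaks overlapped between genotypes, at 0.27, 0.24 and 0.03 in WT and 0.17, -0.16 and -0.00 in K513R, while its other peaks, on a mean of 4.83 input counts, had -0.30, -0.67 and -0.57 in WT and 0.92, 3.56 and 2.36 in K513R. RABL3 lost its call in 5 of the 6 fits that leave out a library pair, all but that without K513R pair 3 (adjusted p up to 0.165). The RABL3 call rested on a mean of 5.83 first-exon input counts.

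Single peaks were ranked among called peaks with a mean of at least 20 input counts and no overlap of the genotypes. Their separation thus follows from the choice. The 8 largest increases were in DENND6A, TXNDC5, RPL8, ARFGEF3, FDX2, TCOF1, MRPL4 and RSF1, all 60 to 401 bases from the 5′ end. Those of TXNDC5 and RPL8 were on the WT list, and the other 6 were on the K513R list only, where the lack of a WT call favours a rise. TXNDC5, a protein disulfide isomerase of the endoplasmic reticulum (chr6:7910668-7910788), had log2 IP over input of -0.33, 0.08 and 0.12 in WT and 1.67, 2.50 and 2.29 in K513R. The IP counts there were 167, 159 and 249 in WT and 249, 224 and 229 in K513R, and the input counts 88, 65 and 105 against 48, 21 and 23. The log2 change of IP over input was 2.18 ± 0.29 (SE; edgeR adjusted p = 0.000186).

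RPL8, a protein of the large ribosomal subunit, had -0.64, -0.99 and -0.83 in WT and 0.56, 1.76 and 1.83 in K513R, a log2 change of 2.14 ± 0.28 (edgeR adjusted p = 0.000186). TCOF1, a nucleolar protein needed for rRNA synthesis (chr5:150357659-150357719), had -0.91, -0.56 and -0.30 in WT and 0.85, 1.71 and 1.85 in K513R, a change of 2.07 ± 0.32 (adjusted p = 0.000323). ARFGEF3 (chr6:138161939-138162089), whose protein belongs to a family of exchange factors for ARF GTPases, had -1.96, -2.04 and -1.30 in WT and 0.14, 0.25 and 0.58 in K513R, a change of 2.13 ± 0.36 (adjusted p = 0.000635). In all 3 the lowest K513R library lay above the highest WT library, as the choice required.

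DENND6A, a factor of endosomal trafficking, changed by 2.39 ± 0.50 (edgeR adjusted p = 0.00227) and MRPL4, a mitochondrial ribosomal protein, by 2.05 ± 0.41 (adjusted p = 0.00166). Of the MRPL4 peak 73.3% is shared with another gene. FDX2, a mitochondrial ferredoxin of iron-sulfur cluster synthesis, changed by 2.13 ± 0.46 (adjusted p = 0.00286), with 44.8% of its peak shared. RSF1, a chromatin remodelling factor, had -1.14, -1.34 and -1.60 in WT and a wide -0.19, 2.56 and 1.10 in K513R, a change of 2.04 ± 0.55 that was 3.33 without K513R pair 1 and missed the threshold without WT pair 3 (adjusted p = 0.0717).

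The 8 largest decreases, chosen in the same way, were in RASA1, DIPK2A, GALNT18, IFIH1, ZIC2, LYSMD1, NKX6-1 and EGLN1, all on the WT list and 300 to 1154 bases from the 5′ end. IFIH1, which encodes the double-stranded RNA sensor MDA5 (chr2:162317907-162318266), had log2 IP over input of 0.29, 0.42 and -0.15 in WT and -1.15, -0.96 and -1.29 in K513R. The log2 change of IP over input was -1.30 ± 0.30 (edgeR adjusted p = 0.00405). The input level of this peak was higher in K513R by 1.94 (adjusted p = 8.4e-06). RASA1 fell by 2.04 ± 0.43 (adjusted p = 0.00233) and LYSMD1, a LysM domain gene, by 1.25 ± 0.31 (adjusted p = 0.00657).

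The other 5 decreases were less stable to leaving out a library pair. GALNT18, which starts mucin-type O-glycans, fell by 1.31 ± 0.35 (edgeR adjusted p = 0.00929, and 0.0695 without WT pair 3). EGLN1, the oxygen-sensing prolyl hydroxylase of HIF, had -0.67, -0.60 and -0.80 in WT and -2.08, -1.29 and -2.31 in K513R (change -1.20 ± 0.35, adjusted p = 0.0166). ZIC2, a zinc finger transcription factor, fell by 1.26 ± 0.41 (adjusted p = 0.028), NKX6-1, a homeobox factor, by 1.21 ± 0.38 (adjusted p = 0.0253) and DIPK2A by 1.33 ± 0.45 (adjusted p = 0.0345). Each of these last 4 calls was lost in 4 of the 6 fits without a library pair, with adjusted p values up to 0.0771, 0.137, 0.123 and 0.181 in the order named. Those fits were without WT pairs 1, 2 or 3 or K513R pair 3 for EGLN1 and DIPK2A, without WT pairs 1, 2 or 3 or K513R pair 2 for NKX6-1, and without WT pairs 1 or 3 or K513R pairs 1 or 2 for ZIC2. The DIPK2A change was -0.77 without K513R pair 3.

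Taking for each gene its first-exon peak with the highest IP level, and only peaks with a mean of at least 20 input counts, the most enriched in WT were those of PPP1R9B, WTAP, VCPIP1, TLE4 and TRMT12. They lay 584 to 2024 bases from the 5′ end, and of the 5 only WTAP, described below, passed the test. PPP1R9B, a scaffold of protein phosphatase 1 (chr17:50149180-50149629), had 2.08, 2.25 and 2.16 in WT and 1.66, 1.92 and 2.53 in K513R, which overlap (change -0.13 ± 0.22, edgeR adjusted p = 0.694). TLE4, a corepressor of Wnt target genes, had 1.54, 1.56 and 1.80 in WT and 1.44, 1.28 and 1.14 in K513R. Here the K513R values all lay below WT, and the change of -0.34 ± 0.21 did not pass (adjusted p = 0.257), except with library-size scaling (-0.62, adjusted p = 0.0216). VCPIP1 (-0.21, adjusted p = 0.498) and TRMT12, a tRNA modification enzyme (-0.01, adjusted p = 0.973), did not pass either.

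The gene lists below are small, and their counts are read against all 1498 tested first-exon peaks, of which 29.8% were higher and 2.20% lower. A list near those shares, such as the 3 of 13 below for Wnt and related signalling, shows nothing about its own genes.

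Among 25 m6A machinery genes, 7 had first-exon peaks (10 peaks), of which 8 were tested, with 2 higher, 2 lower and a median of -0.16. WTAP, which anchors the METTL3 complex (chr6:159726152-159726839, 910 bases from the 5′ end), had 1.88, 1.86 and 1.86 in WT and 1.24, 0.90 and 1.31 in K513R. All K513R values lay below WT, and IP over input fell by 0.73 ± 0.24 (edgeR adjusted p = 0.0322), a call lost without WT pair 1, 2 or 3 or K513R pair 2 (adjusted p up to 0.123) and without the filter on low counts (0.0575). RBM15, which guides the complex to RNA, has 4 first-exon peaks, of which the 1 at 1661 bases fell by 0.57 ± 0.21 (adjusted p = 0.0494) and that at 2948 bases had a change of -0.35 ± 0.21 that did not pass (adjusted p = 0.222).

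METTL3 itself had a peak 120 bases from its 5′ end (chr14:21511133-21511312). It had -0.12, -0.84 and -0.51 in WT and 0.11, -0.03 and 0.57 in K513R, which do not overlap, but the change of 0.76 ± 0.40 did not pass (edgeR adjusted p = 0.169). IGF2BP2, an m6A reader that stabilizes bound mRNAs (chr3:185824892-185825042, 75 bases from the end), had -0.13, -0.28 and 0.01 in WT and 0.68, 1.56 and 1.62 in K513R, and rose by 1.41 ± 0.24 (adjusted p = 0.000603). HNRNPA2B1, a nuclear RNA-binding protein tied to m6A, rose by 1.15 ± 0.28 (adjusted p = 0.00606, and 0.0502 without K513R pair 2). SETD1A, the H3K4 methyltransferase in the series title, has a peak 164 bases from its 5′ end that did not pass the filter. Its IP counts were 19, 8 and 9 in WT and 4, 8 and 16 in K513R, with inputs of 2, 3 and 3 and of 1, 5 and 0.

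Of 48 translation and ribosome genes, 6 had a first-exon peak and 4 were tested, with 3 higher and 0 lower. NOP56, a core protein of the snoRNPs that methylate rRNA (chr20:2652593-2652772), had -0.10, -0.30 and 0.07 in WT and 1.44, 1.11 and 1.07 in K513R, and rose by 1.32 ± 0.25 (edgeR adjusted p = 0.0011). RPL37A, a protein of the large ribosomal subunit, rose by 1.11 ± 0.21 (adjusted p = 0.00121) although its peak lies 1904 bases from the end of a long merged exon, and EIF4EBP1, the inhibitor of the cap-binding factor eIF4E, by 1.04 ± 0.33 (adjusted p = 0.0269). RPS14 (chr5:150449673-150449739) was low in IP against input, at -2.64, -2.96 and -3.10 in WT and -2.44, -2.83 and -2.09 in K513R on a mean of 2323 input counts. In WT its IP counts of 1246, 974 and 995 lay below its input counts of 3247, 3281 and 3933, although the authors' fold enrichment of this peak is 6.7. Its values overlapped between genotypes (change 0.45 ± 0.28, adjusted p = 0.246).

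Of 34 heat shock and unfolded protein response genes, 5 had peaks and 4 were tested, with 2 higher and 0 lower. HSPE1, the mitochondrial co-chaperonin (chr2:197500378-197500690), had -0.09, -0.10 and -0.09 in WT and 0.76, 1.33 and 1.70 in K513R, and rose by 1.35 ± 0.22 (edgeR adjusted p = 0.000492). HSP90B1, a chaperone of the endoplasmic reticulum, rose by 0.93 ± 0.24 (adjusted p = 0.00797), and 46.2% of its peak is shared with other genes. The HSP90B1 call was lost without WT pair 3 (0.0719) or K513R pair 2 (0.0850). ERN1, the sensor IRE1, had a mean of 4.5 input counts and did not pass (adjusted p = 0.173).

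Of 53 Wnt, Notch, TGF-beta and Hippo genes, 16 had first-exon peaks, and of 13 peaks tested 3 were higher and 0 lower (median 0.77). They were DVL1, a Wnt signal transducer (1.38 ± 0.48, edgeR adjusted p = 0.04), JAG1, a Notch ligand (1.01 ± 0.32, adjusted p = 0.0266), and YAP1, the Hippo effector (0.88 ± 0.26, adjusted p = 0.0169). YAP1 (chr11:102110447-102110657) had -0.56, -0.20 and -0.02 in WT and 0.70, 0.41 and 0.68 in K513R, with no overlap. All 3 calls were lost without WT pair 1, those of YAP1 and DVL1 also without WT pair 2, those of JAG1 and DVL1 also without WT pair 3 or K513R pair 2 (adjusted p up to 0.136 for DVL1, 0.159 for JAG1 and 0.144 for YAP1), and all 3 with library-size scaling.

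Of 56 interferon response and antigen presentation genes, 10 had peaks and 9 were tested, with 2 higher and 1 lower. BST2, the tetherin that holds virus particles at the cell surface (chr19:17405512-17405630), had -0.66, -0.93 and -0.59 in WT and -0.50, 0.49 and 0.82 in K513R. Its change of 1.04 ± 0.31 passed (edgeR adjusted p = 0.0189) but not in the fits without WT pair 1, 2 or 3 or K513R pair 2 or 3 (adjusted p up to 0.0947). TYK2, a kinase of the interferon receptor, rose by 1.51 ± 0.49 (adjusted p = 0.029), and IFIH1 fell as given above. IRF3, the factor that switches on interferon genes, had 0.48 ± 0.21 (adjusted p = 0.0983), and its whole peak is shared with BCL2L12.

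Of 53 cell cycle genes, 10 had peaks, and of 5 peaks tested 1 was higher and 0 lower. MKI67, the proliferation marker Ki-67, was higher by 1.69 ± 0.55 (edgeR adjusted p = 0.0279). The MKI67 call rested on a mean of 9.5 input counts and passed in 1 of the 6 fits without a library pair, that without K513R pair 2. WEE1, a kinase that restrains CDK1, had 0.22, 1.05 and 0.55 in WT and -0.59, -0.13 and -0.02 in K513R, apart but not past the test (-0.79 ± 0.36, adjusted p = 0.111).

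Of 85 developmental and stress transcription factors, 20 had peaks and 12 were tested, with 3 higher and 0 lower (median -0.10). MYBL2, a factor of the G1 to S step (chr20:43667049-43667258), had -1.97, -1.19 and -1.29 in WT and -0.34, -0.03 and -0.44 in K513R, and rose by 1.19 ± 0.23 (edgeR adjusted p = 0.0015). E2F1 rose by 2.95 ± 0.66 (adjusted p = 0.00328) on a mean of 7.5 input counts and SIX4, a homeobox factor, by 0.63 ± 0.22 (adjusted p = 0.0405). TCF7L2, the Wnt pathway factor, had values that separated the genotypes without passing (0.42 ± 0.26, adjusted p = 0.256), and HOXB6 overlapped (adjusted p = 0.384).

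Of 77 chromatin regulators, 15 had peaks and 6 were tested, and KDM5C, an H3K4 demethylase (1.00 ± 0.26, edgeR adjusted p = 0.00893), and BPTF, a subunit of the NURF remodeller (0.89 ± 0.32, adjusted p = 0.0445), were higher. KDM5C lost its call without WT pair 1 or 2 (adjusted p up to 0.0649) and BPTF without WT pair 1 or 3 or K513R pair 2 (adjusted p up to 0.231; 0.53 without K513R pair 2). CHD3, a NuRD remodeller, had 0.69, 0.74 and 0.22 in WT and 0.35, 1.17 and 2.57 in K513R, which overlap (adjusted p = 0.307, and 0.0131 without K513R pair 1).

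Of 52 immediate early and feedback genes, 10 had peaks, and of 9 peaks tested 0 were higher and 1 was lower, in ZFP36L1, a decay factor of AU-rich mRNAs (-1.38 ± 0.47, edgeR adjusted p = 0.0353, with 77.7% of the peak shared). JUN, an AP-1 subunit (chr1:58781413-58782341, 2171 bases from the end), had 1.58, 1.63 and 1.48 in WT and 1.35, 1.07 and 1.13 in K513R. All K513R values were lower, but the change of -0.37 ± 0.26 did not pass (adjusted p = 0.315) except with library-size scaling (-0.65, adjusted p = 0.0366). GADD45A, a stress gene, overlapped (adjusted p = 0.544).

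Zinc finger genes named ZNF, ZFP or the like had 63 first-exon peaks in 55 genes, of which 33 were tested, 7 were higher and 1, the ZFP36L1 peak above, was lower. The ZFP36L1 protein has zinc fingers of another type and is in the list through its name. ZNF576 had 2 overlapping higher peaks, the stronger with 0.02, 0.22 and 0.22 in WT and 0.90, 1.24 and 1.59 in K513R (1.14 ± 0.28, edgeR adjusted p = 0.00641, and 0.0529 without WT pair 1). The others were ZFP91, ZNF512, ZNF518A, ZNF783 and ZNF207, the last with a change of 0.78 ± 0.27 (adjusted p = 0.0419) whose call held in 1 of the 6 fits without a library pair, that without K513R pair 1. Clustered protocadherins had 2 first-exon peaks and 0 tested. Of 3 peaks in noncoding RNA genes, that of OIP5-AS1, a cytoplasmic noncoding RNA (chr15:41284007-41285329), was higher, with 0.62, 0.51 and 0.61 in WT and 1.70, 2.45 and 1.74 in K513R (1.33 ± 0.25, adjusted p = 0.0011).

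A further comparison asked whether the RNA under the peaks differed in the inputs. Of 1154 members tested in the 6 input libraries, 70 were higher and 140 lower in K513R (210, or 18.2%), with a median log2 change of -0.11. Among all 14415 peaks tested in the inputs 19.9% passed, 9.86% higher and 10% lower. Within 100 bases of the 5′ end 9 of 380 were higher and 68 lower (median -0.26), and beyond 1000 bases 19 of 111 were higher and 3 lower (median 0.24). In the bins between, the input medians were -0.12, 0.00 and -0.06 going outward from the 5′ end. The part of the lower input near the end in the rise of IP over input there was not tested. The count of 210 was 124 without WT pair 2, 137 without WT pair 3 and 315 without K513R pair 1.

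The inputs of the named peaks varied accordingly. In TXNDC5 the input fell by 0.93 (edgeR adjusted p = 0.00659), in RPL8 by 1.25 (adjusted p = 0.000473), in TCOF1 by 0.78 (adjusted p = 0.0253) and in DENND6A by 1.64 (adjusted p = 0.00811). In ARFGEF3 the input change of -0.41 did not pass (adjusted p = 0.268), nor did those of NOP56 (0.12, adjusted p = 0.701) and IGF2BP2 (-0.37, adjusted p = 0.136). For BST2 and YAP1 the input rose by 0.96 (adjusted p = 0.00201) and 0.85 (adjusted p = 0.00656) together with IP over input.

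In RNA-seq all 2134 host genes were tested, and 640 were higher and 1149 lower in K513R, with a median log2 change of -0.41. Among all 30377 genes tested 78.3% passed, 41.5% higher and 36.9% lower, with a median of 0.13. With upper-quartile factors that median moved to 0.39, and 790 hosts were higher and 967 lower (median -0.15). In such bulk libraries fewer cells of a type and less RNA per cell cannot be told apart. Of 435 hosts of a higher first-exon peak, 99 were higher and 271 lower (median -0.66), and of 32 hosts of a lower peak 11 were higher and 18 lower (median -0.81). RNA-seq was made from rRNA-depleted total RNA and counted over whole genes, the inputs from poly(A) RNA under the peak, and the 2 did not always go the same way.

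In RNA-seq METTL3 had a mean of 39.2 ± 0.897 CPM across WT and of 52.0 ± 2.44 CPM across K513R libraries (mean ± SD, n = 3 each). TXNDC5 went from 79.0 ± 11.9 to 464 ± 26.2 CPM (log2 change 2.56 ± 0.13, SE; edgeR adjusted p = 5.29e-12), whereas the input under its peak fell. TCOF1 fell from 657 ± 17.6 to 75.3 ± 6.13 CPM and IGF2BP2 from 384 ± 27.5 to 32.4 ± 0.454 CPM. DIPK2A, with a decreased peak, rose from 27.8 ± 2.31 to 144 ± 6.15 CPM, and EGLN1, also with a decreased peak, fell from 51.3 ± 2.52 to 12.5 ± 0.471 CPM. Host genes of increased and of decreased peaks thus changed in both directions.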

How the data were processed

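MeRIP-seq counts per peak (6 input and 6 IP libraries) and RNA-seq counts per gene (6 libraries) were used as the authors deposited them, and total 47105235 to 53795212 gene counts per RNA-seq library. Per the submitters' processing notes, Trimmomatic 0.36, featureCounts of Subread 1.5.1, bedtools, deepTools and edgeR 3.12.1 were used with GRCh38. How reads were aligned, how peaks were called and whether the molecular identifiers of the MeRIP kit were used is not given in the sources used here. Each fold enrichment (a ratio of IP over input) of a peak is the authors' own, and so are the log2 fold change and FDR (an adjusted p-value) of their comparison, in the authors' deposited table. Peak starts in that table count from 0, judged from how often a peak begins exactly at an exon end, and were raised by 1.

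The nonredundant peaks were fitted in R 4.3.3 with edgeR 4.0.16 (quasi-likelihood, robust, filterByExpr, TMM factors within IP and within input), and inputs, RNA-seq and the within-gene contrast in the same way, with Benjamini-Hochberg adjustment over all features of a fit. The biological coefficient of variation was 15.2% in peaks, 12.7% in inputs and 13.7% in RNA-seq. limma 3.58.1 and DESeq2 1.42.0 served as alternatives, with other scaling factors, filters, peak sets and each library pair left out. On simulated counts of 17152 peaks, 22 of 100 changes of 1 on the log2 scale and 87 of 100 of 2 were recovered. Strata, bins and within-gene sums came from Python 3.11.15 (pandas 2.3.3), and figures from matplotlib 3.10.9.

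Genes were named by rule: the 8 largest called changes in each direction with at least 20 input counts on average and no overlap of genotypes, the 5 peaks most enriched in WT with at least 20 input counts (for each gene the peak with the highest IP level), up to 3 of each gene list with the highest IP level, METTL3, METTL14, WTAP, SETD1A and E2F4 where they had a peak, the 4 largest called within-gene changes in each direction, and the 3 longest first exons. Some genes that this rule names are not reported here. Other called list members (E2F1, SIX4, TYK2, EIF4EBP1, RBM15 at 1661 bases, ZFP36L1 and zinc finger genes) were picked once their values had been seen. The regions, lists and tests were chosen with earlier results of these data known. RNA-seq counts were summed without regard to strand where genes overlap, so shared exons are uncertain. RefSeq starts (GRCh38.p14) gave all sequences.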

Additional observations from a re-analysis of the deposited data

How the results depend on the processing

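Of the settings tried for the named genes, 1005 kept the call, 81 lost one, 9 gained one and 0 reversed. The 479 changed first-exon peaks became 312 with library size only, 103 among peaks at or above the median enrichment and 276 in the WT list only (the last chosen after seeing the data), and 213 to 559 with a library pair left out. Changed input levels numbered 210, and 124 to 315 with a library left out. The 263 genes of the within-gene contrast became 169 with at least 20 input counts in both places, 129 in the WT list only (chosen after seeing the data) and 124 to 331 with a pair left out. Changed host genes were 1716 to 1809 of 2134 with a library left out, and the difference of library medians was 0.50 to 0.64. Deviations of same-numbered WT and K513R libraries correlated at -0.15 to 0.23. Those of same-numbered input and IP libraries within a genotype correlated at 0.04 to 0.23. The main model took neither as pairs, although by the protocol an input is set aside from the RNA that goes into IP. With the replicate number as a block the counts were 457 peaks (545 with input and IP paired within a genotype), 178 inputs, 1791 host genes and 253 within-gene contrasts. Calls of the genes picked once their values had been seen were not recomputed with a pair left out. A median of 22 input counts over tested members limits what single peaks can show, and 997 members were too thin to test.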
